A study of Homo sapiens with 2 samples.

Results

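The TCF/LEF family consists of 4 genes, TCF7, TCF7L1, TCF7L2 and LEF1, out of 19974 protein-coding RefSeq genes on chromosomes 1 to 22 and X. DEK peaks were collected for each gene over its annotated span (GRCh38) plus 10 kb on each side, from 2 ChIP-seq libraries. The family was chosen from the peaks of these same libraries, and the measured value that put TCF7 first was not stated. Density, fold enrichment and sharing between the libraries are therefore given as descriptions, with no test. Both libraries belong to 1 group: the established renal carcinoma cell line 786-O, with a wild-type genotype, labelled as the negative control of a Cas9 experiment, with DEK as the antibody target. DEK is an abundant nuclear protein that binds chromatin. The labels leave unsaid whether "negative control" describes the cells or the precipitation, and the peaks are called DEK peaks on the reading that it describes the cells. No input or DEK-edited library was analysed here. The labels give no separate cultures for the replicates, so their spread may be purely technical.

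TCF/LEF proteins bind DNA through an HMG box and are the nuclear end of canonical Wnt signalling. When Wnt ligands stabilise beta-catenin, TCF/LEF proteins carry it to target genes, and without it they recruit co-repressors of the TLE (Groucho) family. TCF7 encodes TCF-1, known for its part in T cell development, and an internal start of TCF7 gives short proteins that lack the beta-catenin binding domain. TCF7L1 acts largely as a repressor, TCF7L2 is the main member in intestinal epithelium, and LEF1 is known from lymphoid cells and hair follicles.

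In all, the windows held 11 of the 19015 peaks of replicate 1 and 14 of the 24457 peaks of replicate 2 on these chromosomes. Peaks that overlapped between the replicates by at least 1 bp were joined, and 9 of the 12590 shared regions of the whole data lay at the family. TCF7 had 5 of them in a window of 59.99 kb. TCF7L2 had 3 in 237.4 kb, TCF7L1 had 1 in 197.0 kb, and LEF1 had none in 141.4 kb. TCF7 thus held 55.6% of the family's shared regions in 9.44% of its sequence. At least 1 shared region was found in the windows of 3 of the 4 genes, against 32.9% of all protein-coding genes. All 4 members are longer than the median span of all protein-coding genes, 24.2 kb. Among other genes of similar span, the share with no shared region was 65.2% for TCF7 and 51.3% for TCF7L1. It was 50.4% for TCF7L2 and 55.1% for LEF1. The part of gene span in the family's count was not tested.

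**Figure D1:**
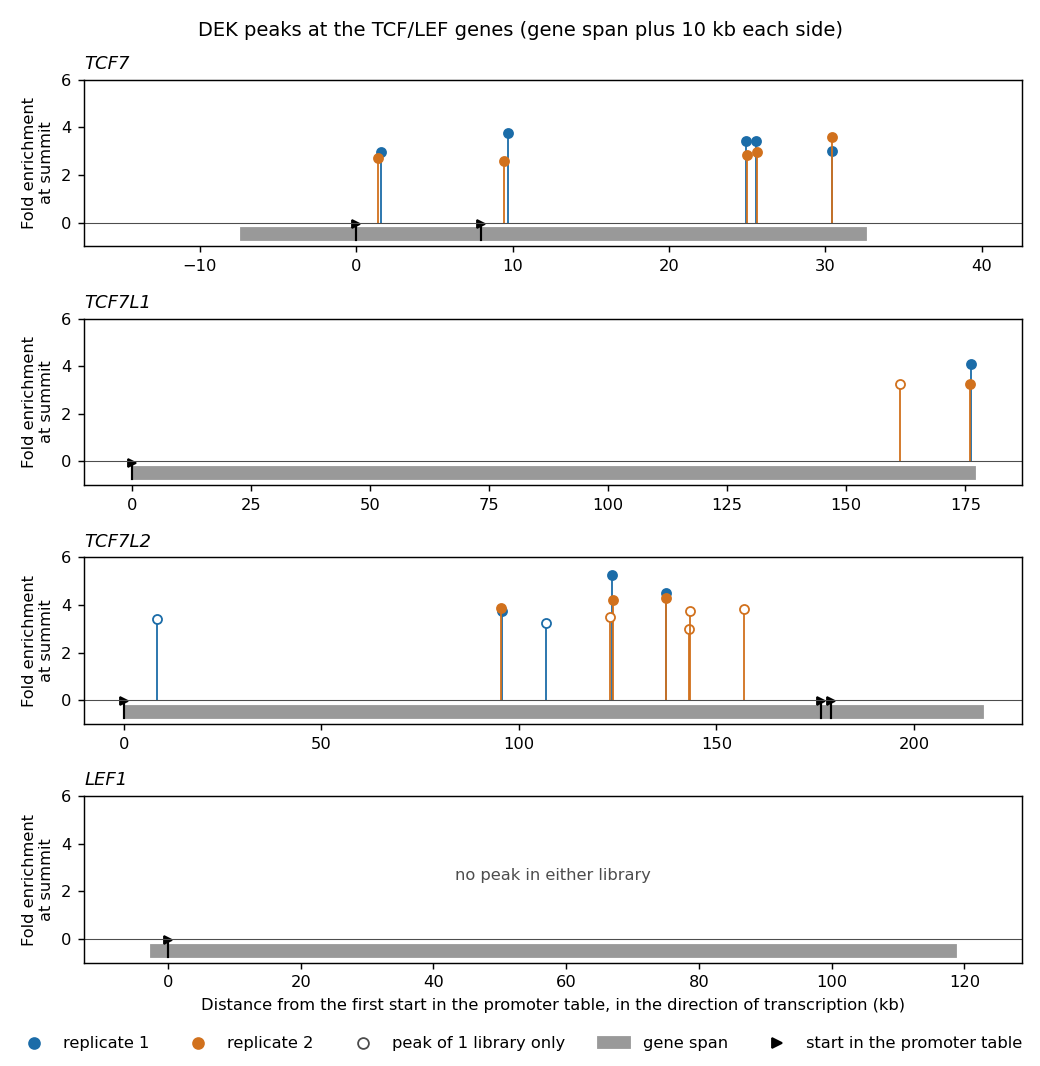
Position of each DEK peak summit (x axis, kb from the first start in the RefSeq promoter table in the direction of transcription, a separate scale for each gene) and the authors' fold enrichment there (y axis, linear ratio) at the 4 genes. Filled points are peaks of regions shared by both libraries, open points are peaks of 1 library, grey bars are gene spans and arrowheads the starts of that table; TCF7 shows 5 pairs of points within its span, and LEF1 shows none.

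TCF7 (chromosome 5, 134108218 to 134148210, plus strand) has 2 annotated starts in the RefSeq promoter table, at 134115613 and 134123618. The first shared region lay at 134116824 to 134117254 and its mean summit was 1486 bp downstream of the first start. The second lay at 134124794 to 134125420, 1571 bp downstream of the second start. The annotated span of TCF7 begins ahead of both starts, at 134108218, and no peak of either library lay between that end and the first start. The LEF1 start in the same table, 108166301 on the minus strand, lies inside the annotated span, which begins at 108168932. The stretch before it is therefore inside the LEF1 span. The sequences before the TCF7 starts are shown because the 2 nearest DEK regions follow them, with that of LEF1, the member without a peak, for comparison. Each is the 250 bases ahead of the start on the gene's own strand, from RefSeq (GRCh38.p14), with CG dinucleotides in capitals.
TCF7 first start, chr5:134115363-134115612: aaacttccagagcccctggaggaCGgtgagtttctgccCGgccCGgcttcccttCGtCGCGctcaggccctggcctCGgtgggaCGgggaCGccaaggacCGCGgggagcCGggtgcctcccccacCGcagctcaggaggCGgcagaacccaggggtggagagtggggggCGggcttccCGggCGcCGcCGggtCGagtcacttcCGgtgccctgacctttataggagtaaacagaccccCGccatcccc
TCF7 second start, chr5:134123368-134123617: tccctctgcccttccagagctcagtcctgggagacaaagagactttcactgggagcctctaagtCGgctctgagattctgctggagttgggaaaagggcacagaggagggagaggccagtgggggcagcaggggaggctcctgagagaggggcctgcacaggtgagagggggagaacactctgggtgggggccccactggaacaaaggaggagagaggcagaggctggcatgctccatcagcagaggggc
LEF1 start, chr4:108166302-108166551: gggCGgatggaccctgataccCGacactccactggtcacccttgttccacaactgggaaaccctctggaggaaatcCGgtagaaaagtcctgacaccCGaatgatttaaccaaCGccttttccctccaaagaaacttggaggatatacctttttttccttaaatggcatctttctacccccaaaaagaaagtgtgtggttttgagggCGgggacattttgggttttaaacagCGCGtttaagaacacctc

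The stretch before the first TCF7 start held 22 CG dinucleotides and was 70.8% G and C, while that before the second held 1 and was 62.0% G and C. The LEF1 stretch held 8, with 47.6% G and C, and the median over 35116 such stretches was 11, with 58.0%. The first starts of TCF7L1 and TCF7L2 held 24 and 21. CG content thus differed widely between the 2 TCF7 starts. No peak of either library overlapped any of the 7 promoter windows of the family (250 bases before to 50 after a start), and a shared region overlapped 3.08% of all such windows. Of the TCF/LEF core motif only the forms CTTTGAT and CTTTGAA were searched, on both strands. Neither was in any of the family's 7 stretches of 250 bases, against 2.26% and 3.80% of all stretches. Other forms were not searched over all stretches, but the motif as a whole was not absent. The form CTTTGTT can be read in the stretch before the second TCF7 start, as aacaaag on the opposite strand. It is also in the stretch before the internal TCF7L2 start at 113126633. The share of all stretches with CTTTGTT was not counted, so its presence here has no background to be set against.

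The other 3 regions of TCF7 lay in the downstream part of the gene. The third and the fourth, at 134140430 to 134140803 and 134141063 to 134141481, were neighbours with summits 630 bp apart. The fifth, at 134145875 to 134146201, lay 2171 bp before the annotated end of the gene. All 5 regions fell inside the TCF7 span and none in the flanks. Whether they fall in exons or introns was not analysed here, because the gene table has no exons. Of the neighbours, VDAC1, the mitochondrial porin gene, overlaps the start of the TCF7 span, and SKP1, which encodes a subunit of SCF ubiquitin ligases, lies beyond its end. None of the 5 regions lay in the span of either gene.

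All 5 TCF7 regions were weak peaks by fold enrichment. The authors' fold enrichment at the summit, a linear ratio within 1 library, was 2.98 in replicate 1 and 2.71 in replicate 2 at the first region. It was 3.77 and 2.59 at the second, 3.44 and 2.84 at the third, 3.43 and 2.96 at the fourth and 3.01 and 3.58 at the fifth. In both libraries all 5 lay below the median of all peaks, which was 3.99 in replicate 1 and 3.89 in replicate 2. The first region ranked at percentile 5.73 of fold enrichment in replicate 1 and 2.90 in replicate 2, the fifth at 6.42 and 33.2. The means ran from 2.84 ± 0.185 at the first region to 3.29 ± 0.403 at the fifth (SD, n = 2), and the values of the libraries overlapped between all pairs of regions except the first and the fifth.

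The pileup, or number of fragments stacked at a summit, was worked out from the deposited fold enrichment and p. At the TCF7 regions it was 17 to 26 fragments in replicate 1 and 18 to 22 in replicate 2, against a median of 19 over all peaks of each library. The TCF7 summits thus held about as many fragments as a typical peak. The background solved with it, the number of fragments expected at the summit, was 4.98 to 6.73 in replicate 1 and 5.43 to 7.50 in replicate 2, against medians of 3.90 and 4.01. The backgrounds of all 5 regions ranked from percentile 69.7 to 86.1 in replicate 1 and from 73.2 to 88.6 in replicate 2. The fold enrichment is a ratio to this background, and the part of the background in the number of regions was not tested.

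**Figure D2:**
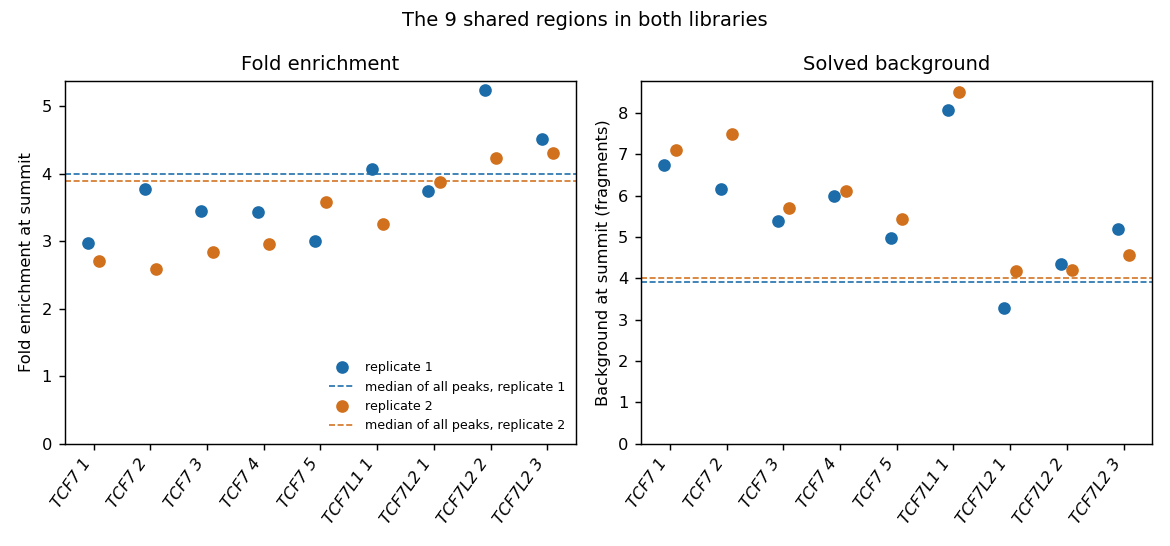
Fold enrichment (left, linear ratio) and solved background (right, fragments expected at the summit) of the 9 shared regions in replicate 1 and replicate 2, numbered in order of coordinate within each gene, with dashed lines at the library medians over all peaks. The TCF7 points lie below the medians of fold enrichment and above those of background, while the second and the third TCF7L2 regions lie above both.

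Every TCF7 peak was found in both libraries, 5 of 5 in replicate 1 and 5 of 5 in replicate 2 (95% Wilson interval 56.6% to 100% for each, counting error only). Of all peaks, 67.8% of replicate 1 and 52.2% of replicate 2 were shared. Among the 467 protein-coding genes with at least 5 peaks in each library, all peaks were shared at 12, or 2.57%, TCF7 among them. With 5 in each library TCF7 is at the lower limit of this class. The class also holds genes with more peaks, so 2.57% is not the share for genes with as few peaks as TCF7. The summits of the 2 libraries lay 202 bp apart at the first region, 285 bp at the second, 80 bp at the third, 31 bp at the fourth and 2 bp at the fifth. The summits of the 2 regions near the starts were therefore the farthest apart. At the second the peaks, 402 bp wide in replicate 1 and 355 bp in replicate 2, overlapped by 130 bp. Over all shared regions the median distance was 69 bp, and 35.4% exceeded 100 bp.

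With 8.33 shared regions per 100 kb, TCF7 ranked at percentile 99.1 of the protein-coding genes, and 188 genes (0.941%) had at least this density. Among the 4097 other genes with a span of 0.67 to 1.5 times that of TCF7, 18 reached it, and 2670 (65.2%) had no shared region. Both libraries alone gave TCF7 the same 8.33 peaks per 100 kb, but then put it at percentile 97.7 with replicate 1 and 96.1 with replicate 2. The density did not hold under stricter cuts: with −log10 q of at least 5 required in both libraries, or fold enrichment of at least 5, TCF7 had no shared region left. Of all 12590 shared regions, 4857 (38.6%) were left with the first requirement and 1301 (10.3%) with the second, so most regions elsewhere were lost too. The −log10 q of its regions was 2.35 to 5.61 in replicate 1 and 2.10 to 4.41 in replicate 2, and only the second region exceeded 5, in replicate 1.

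The TCF7 regions had 28.8 kb between the first and last summit in replicate 1. The next shared region lay 68.4 kb below the window, with a fold enrichment of 3.91 in replicate 1 and 4.68 in replicate 2. On the other side it lay 131 kb above, with 3.51 and 4.69. In the 1 Mb centred on TCF7, 16 further shared regions lay outside the window, a density of 1.70 per 100 kb. The same measure was 2.12 around TCF7L1, 0.525 around TCF7L2 and 0.466 around LEF1, so the surroundings of TCF7 were not poor in regions for this family. SKP1 had no shared region in its span, and the 3 in its own window of span plus 10 kb were the last 3 of TCF7. VDAC1 had 2 in its span, both outside the TCF7 window, and the first TCF7 region was among the 4 in the VDAC1 window of span plus 10 kb.

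**Figure D3:**
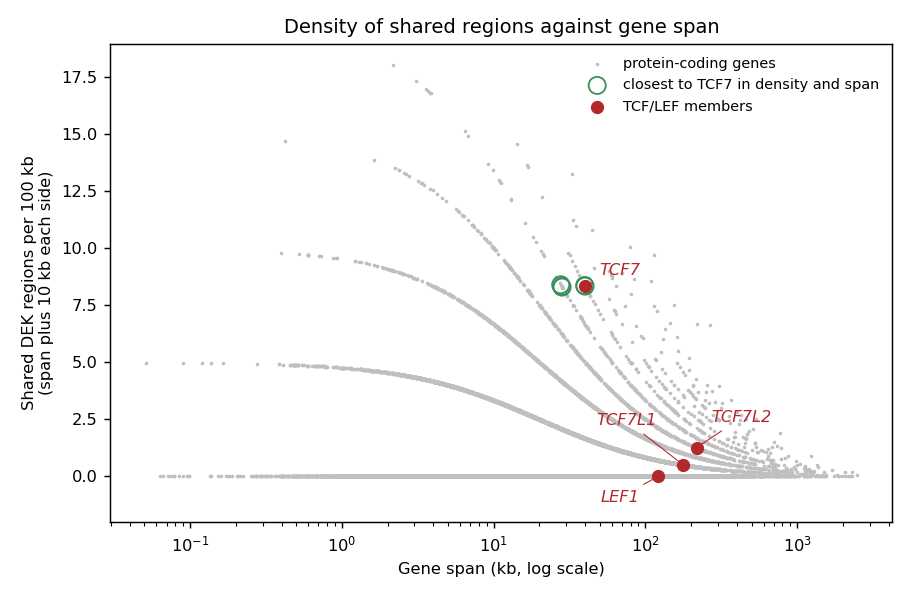
Shared DEK regions per 100 kb (y axis, over the span plus 10 kb each side) against gene span (x axis, kb, log scale) for all protein-coding genes in grey, the 4 members in red and the 5 genes closest to TCF7 as green rings. TCF7 lies at 8.33 per 100 kb, and TCF7L2, TCF7L1 and LEF1 lie at 1.26, 0.508 and 0; the grey bands are genes with the same whole number of regions.

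The genes closest to TCF7 in density, among those with a similar span and at least 3 shared regions, were HAVCR1, EHD1, ASPSCR1, STX16 and MVP. HAVCR1, which encodes the kidney injury marker KIM-1 and lies on chromosome 5 at 157029413 to 157069407, had 5 peaks in replicate 1, 7 in replicate 2 and 5 shared regions, 8.33 per 100 kb. EHD1, an endocytic recycling gene on chromosome 11, had 4 shared regions at 8.32 per 100 kb. ASPSCR1, known as a fusion partner of TFE3 in some renal carcinomas and on chromosome 17, had 6 peaks in each library and 5 shared regions at 8.36. The syntaxin gene STX16 on chromosome 20 had 4 at 8.29, and MVP, the major vault protein gene on chromosome 16, had 4 at 8.40. This likeness is in the number of regions for the span alone, over 2 libraries.

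TCF7L2 (chromosome 10, 112950247 to 113167678, plus strand) had stronger but sparser regions, at 1.26 per 100 kb. The first shared region, at 113045733 to 113046094, had a fold enrichment of 3.74 in replicate 1 and 3.87 in replicate 2. The second, at 113073718 to 113074151, had the highest of the family, with 5.24 and 4.23, and the third, at 113087270 to 113087744, had 4.52 and 4.31. The second and the third lay above the library medians in both replicates, and their −log10 q of 5.50 to 9.25 put both past 5 in both libraries. The summits differed by 123, 20 and 32 bp between the libraries. The 3 regions covered 41.5 kb in the middle of the gene, 95608 to 137236 bp downstream of the first start, and lay before the internal starts at 113126633 and 113129271. The first began shortly beyond the small nucleolar RNA gene SNORA87 (113045355 to 113045576).

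The remaining peaks of TCF7L2 belonged to 1 library each. Replicate 1 alone had summits at 112958611, with a fold enrichment of 3.42, and at 113057105, with 3.25. Replicate 2 alone had 4, with fold enrichments of 3.48 at 113073208, 3.0 at 113093242, 3.76 at 113093657 and 3.82 at 113107236. The first of these 4 lay 715 bp from the nearest replicate 1 summit, and the others 5775 bp or more. In replicate 1, 3 of 5 peaks (60.0%, 95% Wilson interval 23.1 to 88.2) and in replicate 2, 3 of 7 (42.9%, 15.8 to 75.0) were shared. Counting the peaks of 1 library raised the density of TCF7L2 to 2.11 per 100 kb in replicate 1 and 2.95 in replicate 2. TCF7L2 ranked at percentile 75.0 of all protein-coding genes by shared regions and at 86.5 among the 1450 others of similar span.

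TCF7L1 (chromosome 2, 85133392 to 85310387, plus strand) had its shared region at the far end of the gene. The region, at 85309344 to 85309792, lay 895 bp before the annotated end and 176099 bp from the start. Its fold enrichment was 4.07 in replicate 1 and 3.26 in replicate 2, 3.67 ± 0.576 (SD, n = 2), and its pileup of 36 and 30 fragments was the highest of the family. Its background, 8.08 and 8.51 fragments, ranked at percentile 92.2 in replicate 1 and 92.1 in replicate 2. Replicate 2 had 1 further peak at 85294482 to 85294644, with a fold enrichment of 3.25. The neighbour TGOLN2, which encodes a protein of the trans-Golgi network, lies from 85318027. TGOLN2 had 2 shared regions in its span, 4.54 kb and more above the TCF7L1 window. The TCF7L1 region also lay within 10 kb of TGOLN2 and was among the 3 shared regions of the TGOLN2 window, 10 per 100 kb. Density at TCF7L1, 0.508 per 100 kb, ranked at percentile 58.7 among 1818 other genes of similar span, of which 51.3% had no shared region.

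LEF1 (chromosome 4, 108047548 to 108168932, minus strand) had no peak in either library over its span and flanks. The same held for 44.1% of all protein-coding genes and for 764 (30.2%) of the 2527 others with a span of 0.67 to 1.5 times that of LEF1. The nearest peaks lay 22404 bp from the gene in replicate 1 and 22551 bp in replicate 2, past its downstream end, and formed 1 shared region (108024640 to 108025144) with a fold enrichment of 3.67 in replicate 1 and 4.27 in replicate 2. That region is 12.4 kb outside the window, and on the other side none was found for 441 kb. The 1 Mb centred on LEF1 held 4 shared regions. The absence of a called peak does not show that DEK was absent, since weaker signal would not be listed at this depth.

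Across the 9 shared regions fold enrichment was higher in replicate 1 at 7, against 50.6% of all shared regions. At TCF7 it was higher in replicate 1 at 4 of 5, with log2 ratios of replicate 2 over replicate 1 from −0.54 to 0.25. The order of the members by density was TCF7, TCF7L2, TCF7L1 and LEF1. The order by fold enrichment of the strongest region differed, with TCF7L2 at 4.73 ± 0.717, TCF7L1 at 3.67 ± 0.576 and TCF7 at 3.29 ± 0.403 (SD, n = 2), and TCF7L1 and TCF7 were not apart beyond the spread of the libraries.

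The genes that act with TCF/LEF proteins were described by 7 lists of 67 genes. At least 1 shared region lay in the window of 34 of the 67 (50.7%), against 32.9% of all protein-coding genes. The listed genes had a median span of 34.4 kb, against 24.2 kb for all protein-coding genes, and the part of gene span in this difference was not tested. None of the 67 reached the density of TCF7, which 0.941% of all genes did. The median density was 0.448 shared regions per 100 kb in the lists and 0 over all genes.

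Of beta-catenin and its co-activators, 4 of 7 had a shared region. PYGO2, which encodes a Pygopus protein that links beta-catenin through BCL9 to chromatin, had 2 shared regions at 8.08 per 100 kb, and BCL9L had 2 at 4.02. CTNNB1, the beta-catenin gene itself, and PYGO1 had no peak in either library. Of the co-repressors, 5 of 7 had a region, led by TLE1 with 4 at 3.18 per 100 kb and CTBP2 with 6 at 3.03. Both kinases listed as acting on TCF/LEF proteins had regions, TNIK with 5 at 1.18 per 100 kb and NLK with 2 at 1.09, in long genes with a median span of 283 kb.

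Of the beta-catenin destruction complex, 6 of 8 genes had a shared region. The scaffold gene AXIN1 had 3 at 3.52 per 100 kb and the kinase gene GSK3A had 1 at 3.09, while APC and GSK3B had peaks of single libraries only. Of the receptors and Dishevelled genes, 5 of 15 had a region, a share of 33.3%, close to that of all genes. The Dishevelled genes DVL2, at 6.85 per 100 kb, and DVL3, at 5.23, had 2 each. Of the Wnt ligand genes, 8 of 19 had a region, led by WNT7B with 3 at 3.91 and WNT10B with 1 at 3.79. Of 10 known target genes, 5 had a region, with MYC at 7.27 and CCND1 at 6.0 per 100 kb, 2 regions each. SP5, NOTUM and NKD1 had no peak.

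**Figure D4:**
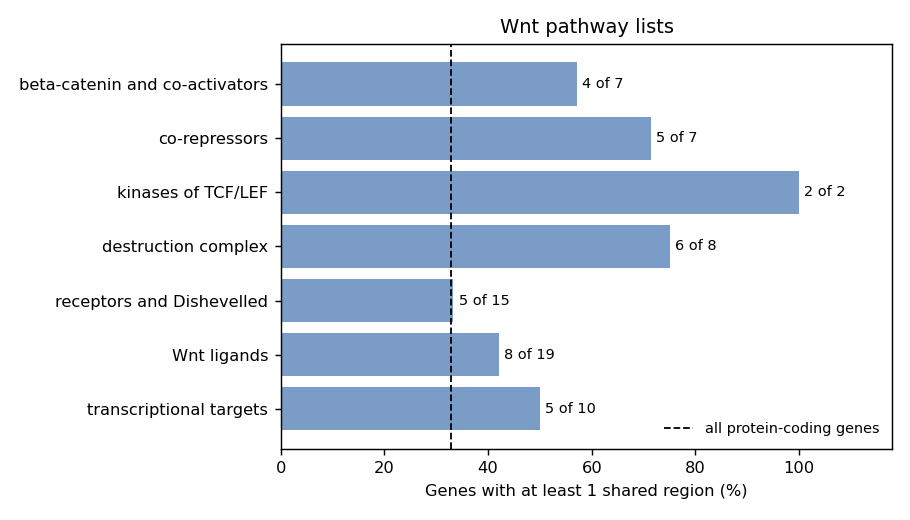
Share of genes with at least 1 shared DEK region within the span plus 10 kb (x axis, %) for the 7 Wnt pathway lists, with the number of genes beside each bar and a dashed line at the 32.9% of all protein-coding genes. Receptors and Dishevelled genes lie at the line and the other lists above it; gene span is not adjusted for.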

How the data were processed

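Peak lists were deposited by the authors for each library, and the peak names carry 1 library each. Per the submitters' processing notes, the build was GRCh38 (hg38), and the tools, with no roles stated, were deepTools 3.5.1, ChIPseeker 1.32.1, DiffBind 3.6.5, MACS2 2.2.7.1, Bowtie2 2.2.5 and cutadapt 1.18. The sources used here do not state a control library for calling. The deposited columns are a whole-number score, the fold enrichment as a linear ratio, −log10 p, −log10 q and the summit offset in bp; the authors' score was not used. The files state no read depth.

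Peaks on chromosomes 1 to 22 and X were kept. Regions, windows and densities were computed with Python 3.11.15 and pandas 2.3.3, after the code was tested on simulated data. Pileup and background at a summit were solved from fold = (pileup + 1) / (background + 1) and a Poisson p with a whole pileup, which met the deposited −log10 p within 5e-05 of its value in 99.99% of the peaks of replicate 1 and nearly all of replicate 2. Starts and promoter sequences came from RefSeq (GRCh38.p14). Members, lists and rules were chosen with earlier results of these data known. Named genes were the 4 members, genes overlapping their windows (of which the text names those beside a result), the 5 genes nearest TCF7 in density and the 2 densest of each pathway list. List members without a peak were named after their values were seen. With 1 group, no test was made.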

Additional observations from a re-analysis of the deposited data

How the results depend on the processing

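TCF7 had the highest density of the 4 genes under 7 of 10 alternatives, and LEF1 had no region under 9 of 10. Values are shared regions per 100 kb unless said otherwise. Without the flanks TCF7 had 12.5 in place of 8.33, from the same 5 regions over a shorter window. Its percentile was then 98.3 in place of 99.1. With flanks of 50 kb, TCF7 fell to 3.57 and percentile 96.5, with its count still at 5, while TCF7L1 had 1.44 and LEF1 0.452. Requiring summits within 100 bp left TCF7 at 5.00 (3 regions) and percentile 98.5, and 50% reciprocal overlap left 6.67 (4 regions). With −log10 q of at least 5, TCF7 had 0 (percentile 0), and TCF7L2, at 0.842, and TCF7L1, at 0.508, passed it. With fold enrichment of at least 5, or the 5000 peaks of lowest p in each library, all 4 genes had 0, and 3.48% and 9.22% of all protein-coding genes kept a region. Leaving out a replicate gave 8.33 for TCF7 (percentile 96.1 to 97.7), 0.508 to 1.02 for TCF7L1, 2.11 to 2.95 for TCF7L2 and 0 for LEF1. Counting summits under 500 bp apart once changed none of the 4 densities. No paired analysis was possible because there is 1 group. A typical peak of 19 fragments has a wide counting error, which limits every fold enrichment here.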
